A study of Mus musculus with 4 samples.

Results

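The aryl hydrocarbon receptor axis was followed here through 7 genes, chosen by name: the receptor gene Ahr, its partner gene Arnt, its repressor gene Ahrr, and the target genes Cyp1a1, Cyp1b1, Tiparp and Nqo1. All 7 had a row among the 22632 genes of the deposited table. The set was drawn up because Cyp1a1 was already known to be far lower without Yap in these libraries, so its own levels and ratios are given as a description, and the question was whether other receptor targets had the same pattern.

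The aryl hydrocarbon receptor (AHR) is a ligand-activated transcription factor of the bHLH-PAS family. It waits in the cytoplasm with HSP90 and co-chaperones, and after binding a ligand such as a dioxin, a polycyclic hydrocarbon or a dietary or microbial indole it enters the nucleus, pairs with ARNT and binds xenobiotic response elements, whose core is GCGTG. In the intestinal epithelium, CYP1A1 is a sensitive readout of the receptor and also breaks its ligands down. AHRR and TIPARP are receptor targets that restrain it.

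RNA was sequenced from mouse small intestinal organoids, epithelial cultures grown from isolated crypts in Matrigel with Egf, Noggin and Rsp1, harvested 24 hours after seeding. There were 4 libraries, 1 per group. The Yap+/- library came from Yap+/fl;VillinCre mice and the Yap-/- library from Yapfl/fl;VillinCre mice, so both carried the Villin-driven Cre, which acts in the intestinal epithelium. The other pair came from YapTg mice, which carry a doxycycline-inducible wild-type Yap transgene under a Cre-driven reverse transactivator, 1 culture without and 1 with doxycycline (1.5 mg/ml as the labels state it). The labels do not state the driver of Cre in YapTg, the ages of the mice, the number of mice per culture or how the lines are related, and no library had doxycycline without the transgene. Since each group is 1 library, no difference could be set against replicate spread and no test was made. Intervals are 95% counting intervals from the reads behind each value and cover counting error only.

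Levels are in RPKM, the read number per kilobase of gene after scaling to the size of the library, which allows comparison between genes. Library totals were between 44934170 and 75269003 reads. Yap1 was at 16.7, 3.35, 25.1 and 1039 RPKM in the Yap+/-, Yap-/-, uninduced YapTg and induced YapTg libraries, in the direction of each label. All 7 epithelial markers (Epcam, Vil1, Cdh1, Krt8, Krt18, Krt19 and Cdx2) were at 1 RPKM or more in every library. Markers of other sources were low, with summed levels of 0.489 to 3.61 RPKM for 7 stromal genes, 3.81 to 8.38 RPKM for 6 immune genes, 0.0776 to 0.157 RPKM for 3 endothelial genes and 0.331 to 3.75 RPKM for 3 hepatocyte genes.

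The promoters of 4 targets are shown because they pair Cyp1a1 and Cyp1b1, which were highest in the Yap+/- library, with Tiparp and Nqo1, which were not. Each line gives the 250 bases before the RefSeq start site, 5′ to 3′ on the gene's strand, with GCGTG on either strand (CACGC when on the opposite strand) in capitals.
Cyp1a1: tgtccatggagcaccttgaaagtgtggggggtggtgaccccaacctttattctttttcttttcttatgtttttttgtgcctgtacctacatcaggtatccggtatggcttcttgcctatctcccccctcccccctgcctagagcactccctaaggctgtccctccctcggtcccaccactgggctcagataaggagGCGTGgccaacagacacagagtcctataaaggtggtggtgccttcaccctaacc
Cyp1b1: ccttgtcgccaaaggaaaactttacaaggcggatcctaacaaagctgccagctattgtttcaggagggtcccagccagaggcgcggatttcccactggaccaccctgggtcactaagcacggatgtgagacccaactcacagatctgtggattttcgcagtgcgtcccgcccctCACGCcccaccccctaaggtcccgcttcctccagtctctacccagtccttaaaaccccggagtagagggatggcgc
Tiparp: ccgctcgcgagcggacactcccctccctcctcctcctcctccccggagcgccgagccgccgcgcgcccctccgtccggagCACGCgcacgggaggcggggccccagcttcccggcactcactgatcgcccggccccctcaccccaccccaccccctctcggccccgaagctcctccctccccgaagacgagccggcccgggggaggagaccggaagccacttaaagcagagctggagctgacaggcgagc
Nqo1: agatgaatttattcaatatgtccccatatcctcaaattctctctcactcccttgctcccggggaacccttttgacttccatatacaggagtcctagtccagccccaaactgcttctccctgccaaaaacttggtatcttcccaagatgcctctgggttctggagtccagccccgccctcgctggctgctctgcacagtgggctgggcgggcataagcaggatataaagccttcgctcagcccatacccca
In build GRCm38.p6 these windows are chr9:57697363-57697612 on the plus strand for Cyp1a1, chr17:79715062-79715311 on the minus strand for Cyp1b1, chr3:65528197-65528446 on the plus strand for Tiparp and chr8:107403206-107403455 on the minus strand for Nqo1. The reads were aligned to mm9, so no position was carried between builds. Cyp1a1, Cyp1b1 and Tiparp each held 1 GCGTG core, starting at -54, -76 and -170 from the start site, and Nqo1 held 0. Among the other members Arnt held 1 and Ahrr held 3. Cyp1a2, a CYP1 gene outside the members that was also highest in Yap+/-, held 0, as Nqo1 did. Of 32851 RefSeq promoter windows of this length, 28.2% held the core, so a single match is common. The longer form TNGCGTG, searched on both strands and containing the core, was in 4.10% of windows and among the 6 members with a window only in that of Ahrr, once. Ahr had no entry. The TATA motif TATAAA, searched for the members and Cyp1a2 on the gene's strand, began at -30 in Cyp1a1 and at -29 in Nqo1 and Cyp1a2. It was in 12.4% of windows on either strand. Enhancers farther upstream lie outside these windows.

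Cyp1a1, the phase I monooxygenase that oxidises aromatic hydrocarbons, was high in 1 of the 4 libraries. It was at 14.4 RPKM in Yap+/- (2152 reads), 0.0564 RPKM in Yap-/- (10 reads), 0.255 RPKM in uninduced YapTg (30 reads) and 0.665 RPKM in induced YapTg organoids (131 reads). The counting intervals of the 4 libraries did not overlap: 13.8 to 15.1, 0.0270 to 0.104, 0.172 to 0.364 and 0.556 to 0.789 RPKM. The order was thus Yap+/-, induced YapTg, uninduced YapTg and Yap-/-, and each neighbour differed by more than counting error. Yap+/- stood 256-fold above Yap-/- (interval 139 to 535) and 56.6-fold above uninduced YapTg (39.5 to 84.1). These folds share the Yap+/- library and rest on it. Induced YapTg stood 2.61-fold above uninduced YapTg (1.74 to 4.02), with both under 1 RPKM. Compared with Yap+/-, Cyp1a1 was at 0.391% in Yap-/-, 1.77% in uninduced and 4.60% in induced YapTg. Cyp1a1 lies on chromosome 9, as does Yap1.

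Cyp1b1, the family member that also oxidises steroids and is typical of tissues outside the liver, was low but had its highest level in the same library. It was at 0.432 RPKM in Yap+/- (128 reads) and 0.0567 RPKM in Yap-/- (20 reads), and had 0 reads in both YapTg libraries, where 3 reads would have been 0.0128 RPKM without and 0.00765 RPKM with doxycycline. The Yap+/- level was 7.61-fold above Yap-/- (interval 4.73 to 12.9). It was 33.7-fold above the level of 3 reads in uninduced YapTg, without the counting error of the 128 reads. Yap+/- was the high library for Cyp1b1 as for Cyp1a1, while induced YapTg, second for Cyp1a1, was at 0 here. The 7 stromal markers, cells in which Cyp1b1 is often found, summed to 3.57 RPKM in Yap+/- and 3.61 RPKM in Yap-/-, nearly all of it Vim. Their part in the Cyp1b1 difference was not tested.

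Cyp1a2, the third member of the family, is not one of the 7 and belongs to a wider list of AHR targets. It had 16 reads in Yap+/- (0.149 RPKM), 0 in Yap-/-, 0 in uninduced YapTg and 4 in induced YapTg (0.0281 RPKM). Yap+/- was 6.34-fold above the level of 3 reads in Yap-/- and 4.21-fold above that of 3 reads in uninduced YapTg. These folds leave out the counting error of the 16 reads. Cyp1a1 and Cyp1a2 are neighbours of like sequence, and 94 of the 2737 different 50-base words of Cyp1a1 transcripts (3.43%) also occur in Cyp1a2. The sources used here state neither the read length nor the treatment of reads with several matches, so how many of the 16 reads came from Cyp1a2 is uncertain. Cyp1b1 shared 0 such words with Cyp1a1. The 3 hepatocyte markers Alb, Cyp2e1 and Serpina1a, of a cell type rich in Cyp1a2, summed to 2.16 RPKM in Yap+/- and 3.75 RPKM in Yap-/-.

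Since Cyp1b1 and Cyp1a2 lay under 1 RPKM, their differences were set beside other genes of that level, a comparison added after the values were seen. Of 2706 genes whose higher library was at 0.1 to 1 RPKM, 100 (3.7%) were lower in Yap-/- with a counting interval wholly past 2-fold, and 35 (1.29%) were higher. Cyp1b1, with an interval from 4.73, was among the 100. With doxycycline 256 of 2625 such genes (9.75%) were higher and 277 (10.6%) lower by this measure, and Cyp1a1, with an interval from 1.74, was not among them. Against uninduced YapTg, 87 of 2671 such genes (3.26%) were higher in Yap+/- and 145 (5.43%) lower. Ahrr, at most at 0.0955 RPKM in a library, lay below this range, so its folds have no such share beside them.

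**Figure D1:**
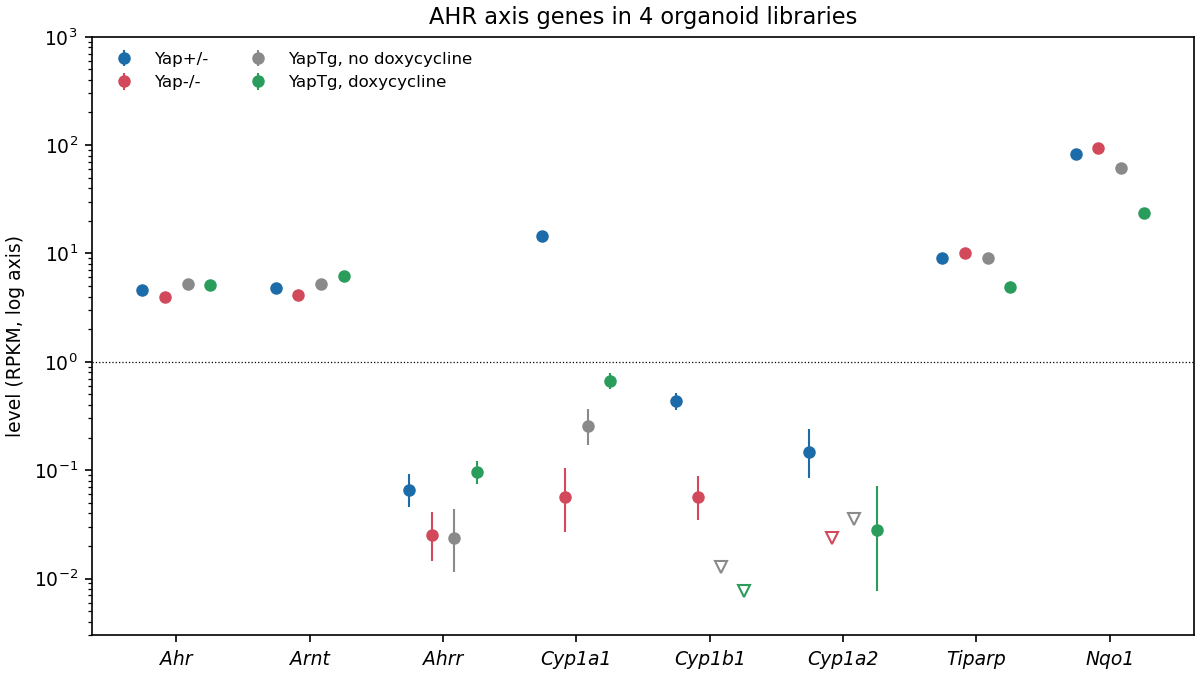
Levels of the 7 genes and Cyp1a2 in RPKM on a log axis, 1 point per library with its 95% counting interval. Open triangles stand at the level of 3 reads for libraries with 0 reads, and the dotted line marks 1 RPKM. The Yap+/- library lies at 14.4 RPKM for Cyp1a1, above the other 3, and is highest for Cyp1b1 and Cyp1a2 but not for Ahr, Arnt, Ahrr, Tiparp or Nqo1.

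The receptor itself did not share this pattern. Ahr was at 4.64 RPKM in Yap+/-, 3.99 in Yap-/-, 5.21 in uninduced YapTg and 5.06 in induced YapTg, a span of 1.31-fold between the highest and lowest library. The YapTg libraries could not be ordered, at 1.03-fold apart with a counting interval of 0.959 to 1.10, while Yap+/- was 1.16-fold above Yap-/- (1.08 to 1.25). Arnt, the partner that AHR shares with the hypoxia-inducible factors, was at 4.83, 4.13, 5.27 and 6.14 RPKM in the same order of libraries. It was 1.17-fold higher in Yap+/- than in Yap-/- and 1.16-fold higher with than without doxycycline. Both genes were thus expressed in all 4 libraries at levels within 1.49-fold, and both were lowest in Yap-/-, as Cyp1a1 was.

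Ahrr, the repressor that competes with AHR for ARNT and is itself induced by the receptor, was close to undetected. It had 35 reads in Yap+/- (0.0659 RPKM), 16 in Yap-/- (0.0253 RPKM), 10 in uninduced YapTg (0.0239 RPKM) and 67 in induced YapTg (0.0955 RPKM). Yap+/- was 2.60-fold above Yap-/- and 2.76-fold above uninduced YapTg (interval 1.34 to 6.26). Induced YapTg was 4.00-fold above uninduced YapTg (2.05 to 8.72). The direction in each comparison was that of Cyp1a1. The level intervals of Yap+/- (0.0459 to 0.0917 RPKM) and induced YapTg (0.0740 to 0.121 RPKM) overlapped, as did those of Yap-/- and uninduced YapTg, so neither pair could be ordered. With 67 reads at most, these levels rest on few reads.

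Tiparp, which encodes a mono-ADP-ribosyltransferase that dampens AHR signalling, went its own way. It was at 9.15 RPKM in Yap+/-, 10.1 in Yap-/-, 9.03 in uninduced YapTg and 4.89 in induced YapTg. Yap-/- was 1.10-fold above Yap+/- (interval 1.04 to 1.17), the reverse direction to Cyp1a1 but a small difference. The log2 ratio of RPKM plus 1 was 0.13 for Tiparp, against a median of 0.05 over all genes that reached 1 RPKM. Yap+/- and uninduced YapTg were 1.01-fold apart, with an interval of 0.949 to 1.08. The induced library was the low one, 1.85-fold below uninduced YapTg (1.72 to 1.98), where Cyp1a1 was higher.

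Nqo1, a quinone reductase driven by both AHR and the oxidative stress factor NRF2, was the most abundant of the 7. It was at 82.8 RPKM in Yap+/-, 94.7 in Yap-/-, 61.7 in uninduced YapTg and 23.7 in induced YapTg. Yap-/- was 1.14-fold above Yap+/- (interval 1.11 to 1.18), again the reverse direction to Cyp1a1 but a small difference. The log2 ratio of RPKM plus 1 was 0.19 for Nqo1, against a median of 0.05 over all genes that reached 1 RPKM. Yap+/- was 1.34-fold above uninduced YapTg (1.29 to 1.39), and induced YapTg was 2.60-fold below it (2.48 to 2.73).

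A gene was counted as past 2-fold when the log2 ratio of RPKM plus 1 reached 1 in size and the higher library reached 1 RPKM. Shares of genes are of those whose higher library reached 1 RPKM. Counts out of a whole list also hold genes under that level, which could not pass. In Yap-/- against Yap+/-, Cyp1a1 was the 1 member of 7 lower, where 0.57% of 10710 genes were and 0.906% passed in either direction. With doxycycline, Nqo1 was the 1 member of 7 lower, where 5.8% of 11108 genes were and 11.6% passed in either direction. In Yap+/- against uninduced YapTg, Cyp1a1 was the 1 member of 7 higher, where 1.11% of 10883 genes were and 1.84% passed in either direction. The members were named with these ratios known, so the counts describe them and nothing is read from them. Cyp1b1 and Ahrr could not pass in any comparison because they stayed under 1 RPKM.

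A wider list of 20 AHR targets, which holds 5 of the 7 members, was set beside Cyp1a1. In Yap-/- against Yap+/-, 15 of the 20 were at 1 RPKM or more. Of these 1 was lower, Cyp1a1, and 0 were higher, where 0.57% and 0.336% of genes at that level were. Their median log2 ratio was 0.06, against 0.05 over all such genes. Targets under 1 RPKM could not pass. Among them Cyp1b1, Cyp1a2 and Ahrr were lower in Yap-/-, as given above, and Fgf21 had 0 reads in Yap+/- and 2 in Yap-/-. Among the 15 at 1 RPKM or more the next on the lower side was Cyp2s1, a dioxin-inducible P450 of epithelia. It was at 27.0 and 17.1 RPKM (1.58-fold lower in Yap-/-, interval 1.53 to 1.63). Gsta1, a glutathione transferase, was at 550 RPKM in Yap+/- and 646 in Yap-/-. Ugdh, which makes the UDP-glucuronic acid used in conjugation, was at 129 and 138 RPKM. Aldh3a1, an aldehyde dehydrogenase of the classical AHR battery, had 0 reads in both libraries. Cell type markers also differed in this pair. Paneth markers summed to 4231 RPKM in Yap+/- and 8353 in Yap-/-, with Ang4 and Defa24 among 4 higher past 2-fold, and the stem cell marker Olfm4 was 2.06-fold higher in Yap-/-. Enterocyte markers summed to 6152 and 8648 RPKM, with 0 of 7 past 2-fold, and Fabp1 alone was at 3457 and 5766 RPKM. Sis, Apoa4, Lct and Treh were also higher in Yap-/-. Alpi (491 and 416 RPKM) and Apoa1 (811 and 641 RPKM) were lower. Of 3 distal markers 1 was lower past 2-fold in Yap-/-, Fabp6, at 12.7 and 5.77 RPKM. Slc10a2 was lower by less (5.80 and 3.68 RPKM) and Osr2 was higher (11.2 and 15.1 RPKM). Proximal markers summed to 472 and 571 RPKM. The part of these differences in the Cyp1a1 level was not tested.

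With Yap induced more of the list passed 2-fold, and mostly on the lower side, while Cyp1a1 was higher. Of the 20 targets 14 were at 1 RPKM or more. Among these 5 were lower and 2 higher past 2-fold, where 5.8% of genes at that level were lower and 5.85% higher. The 14 had a median of -0.81, against -0.04 over all such genes. Targets under 1 RPKM could not pass. Among them Cyp1a1 and Ahrr were higher with doxycycline, as given above, and Cyp1b1 had 0 reads in both libraries. Fgf21 had 0 reads without and 23 with doxycycline, 4.58-fold above the level of 3 reads, leaving out the counting error of the 23 reads. Cyp1a2 and Aldh3a1 had 0 reads without and 4 and 5 with doxycycline, not above the level of 3 reads. Besides Nqo1, the lower genes were Ugt1a6a, Ugt1a6b, Ugdh and Cyp2s1. Ugt1a6a and Ugt1a6b, which encode glucuronosyltransferases, were at 86.4 and 205 RPKM without and 25.7 and 61.4 RPKM with doxycycline, 3.36-fold and 3.33-fold lower. They are alternative first exons of 1 locus and share 42.2% of the 50-base words of Ugt1a6a. Their read numbers were close, at 22764 and 21895 without and 11352 and 11007 with doxycycline. They are thus not independent measurements, and their reads may lie mostly in shared sequence and cannot be assigned to either gene. Both are counted among the 5 lower targets. Ugdh was at 83.2 and 35.9 RPKM and Cyp2s1 at 15.8 and 6.79 RPKM, each 2.32-fold lower. Higher were Abcg2, the efflux pump, at 11.5 and 30.7 RPKM (2.68-fold), and Slc7a5, the large neutral amino acid carrier that can import tryptophan metabolites, at 16.4 and 37.0 RPKM (2.25-fold). The 7 enterocyte markers summed to 3783 RPKM without and 1120 RPKM with doxycycline, 5 of 7 lower past 2-fold, and 4 of 4 goblet markers were lower. The part of these differences in the lower conjugation genes was not tested. Fewer cells of a type and less RNA per cell cannot be told apart in whole cultures.

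Between the reference libraries, Yap+/- and uninduced YapTg, 15 of 20 targets were at 1 RPKM or more. Of these 2 were higher in Yap+/-, Cyp1a1 and Gsta1, and 0 were lower, where 1.11% and 0.726% of genes at that level were. Gsta1 was at 550 and 270 RPKM (2.04-fold, interval 2.00 to 2.08). The median of 15 targets was 0.34, against -0.11 over all genes. These libraries also differed in cell type and regional markers. Enterocyte markers summed to 6152 RPKM in Yap+/- and 3783 in uninduced YapTg, proximal markers to 472 and 338 RPKM, and the distal markers Fabp6, Slc10a2 and Osr2 to 29.7 and 116 RPKM. Paneth markers summed to 4231 RPKM in Yap+/- and 10529 in uninduced YapTg, with Lyz1 and Defa24 lower in Yap+/- past 2-fold, and the stem cell marker Lgr5 was 3.23-fold lower in Yap+/-. The part of these differences in the Yap+/- level of Cyp1a1 was not tested. The comparison shares Yap+/- with the first and uninduced YapTg with the second, so the comparisons are not independent.

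**Figure D2:**
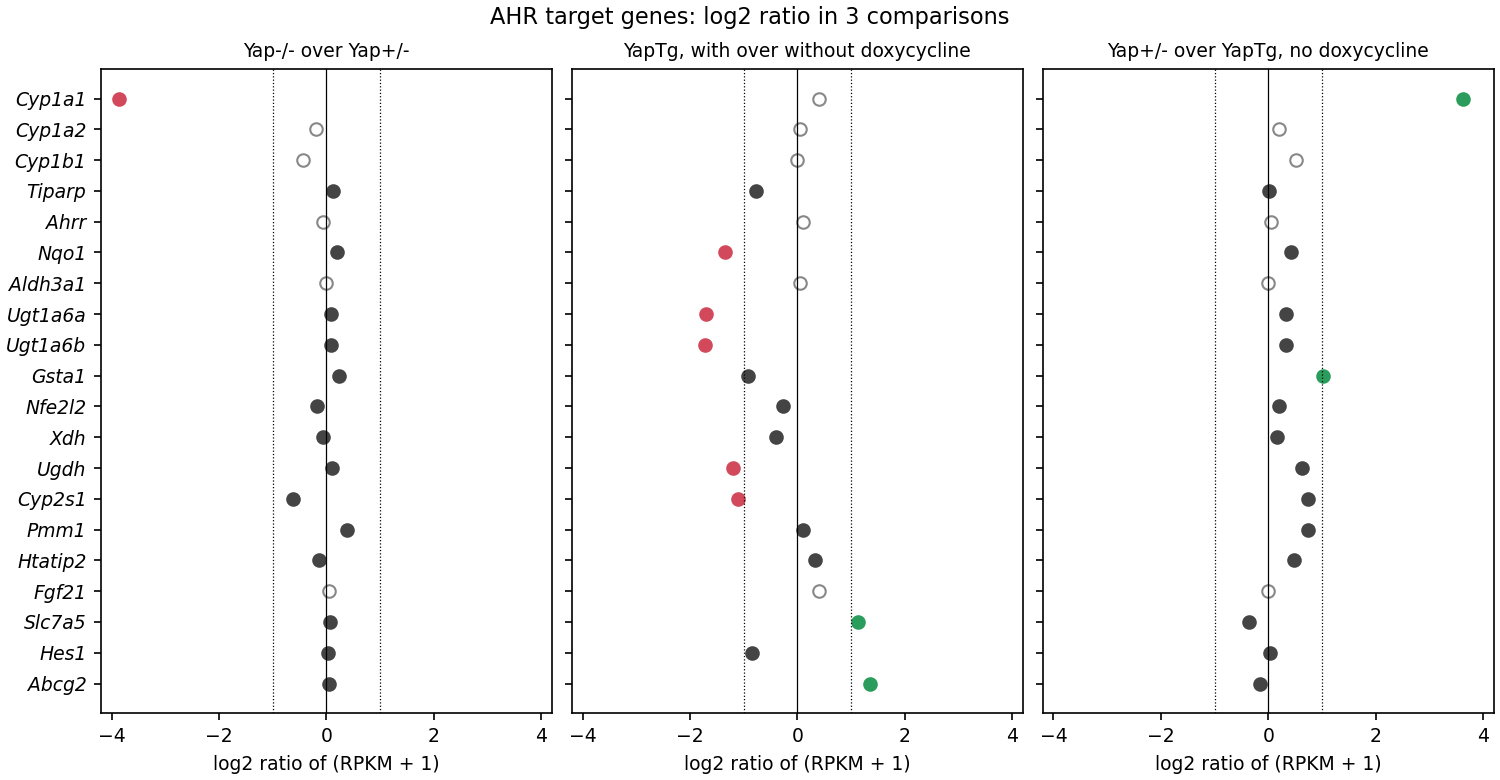
Log2 ratio of RPKM plus 1 for 20 AHR target genes in the 3 comparisons, 1 point per gene. Red and green points are lower and higher past 2-fold (dotted lines), dark points are not past it, and open points are under 1 RPKM in both libraries. Cyp1a1 is furthest from 0 at -3.87 in the first panel and 3.62 in the third, on a scale that understates low genes such as Cyp1b1. The middle panel holds 5 red and 2 green points with Cyp1a1 at 0.41.

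In the list of the receptor complex and its bHLH-PAS relatives few genes passed 2-fold. Of 15 listed genes 0 passed 2-fold in Yap-/- against Yap+/- and 0 in the reference pair, where Hsp90aa1 (22.1 RPKM in Yap+/- and 30.2 in uninduced YapTg) and Arntl (5.28 and 7.14 RPKM) were furthest from 0. The 2 furthest from 0 in the first comparison were Hif1a, 1.30-fold higher in Yap-/- (29.8 and 38.8 RPKM), and Arnt2, a paralog of Arnt, 1.55-fold lower (1.09 and 0.705 RPKM). With doxycycline 1 of 15 was higher, Arnt2, at 1.07 and 4.04 RPKM (3.79-fold), and 0 were lower, where 5.85% and 5.8% of genes were. Ncoa3, a coactivator gene, was just under the threshold at 4.65 and 10.2 RPKM (2.20-fold, log2 ratio 0.99 with the pseudocount), and Hsp90aa1 was at 30.2 and 56.1 RPKM (1.86-fold). The count was 2 under either other scaling or a pseudocount of 0.1, and 0 with a pseudocount of 5 or a minimum of 5 RPKM. Hsp90ab1, which encodes a chaperone of the cytoplasmic complex, was abundant throughout, at 450.0 to 745 RPKM.

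The next list held 12 enzymes of tryptophan and kynurenine metabolism, not all of which make receptor ligands. In the first comparison 7 of 12 were at 1 RPKM or more in either library and 0 passed 2-fold. Ido1, the epithelial enzyme that opens the kynurenine route, was at 4.04 RPKM in Yap+/- and 4.33 in Yap-/-, 1.28 in uninduced YapTg and 0.146 in induced YapTg. Of the 7 enzymes at 1 RPKM or more in the reference pair Ido1 was the 1 past 2-fold, where 1.11% of such genes were higher. It was 3.16-fold higher in Yap+/- (interval 2.54 to 3.95). The count there was 2 with a pseudocount of 0.1 and 0 with one of 5 or a minimum of 5 RPKM. Ido1 was 8.79-fold lower with doxycycline on the RPKM scale (5.42 to 15.0), while its log2 ratio with the pseudocount was -0.99, just under the threshold. Ccbl1, a kynurenine aminotransferase gene, was next at 6.94 and 3.07 RPKM. Thus 0 of the 6 enzymes at 1 RPKM or more passed with doxycycline, where 11.6% of such genes did. With a pseudocount of 0.1, 3 passed. Il4i1, an amino acid oxidase that yields indole ligands, was at 4.64 RPKM in Yap+/-, 3.47 in Yap-/-, 3.29 in uninduced YapTg and 6.21 in induced YapTg, which puts the same 2 libraries on top as for Cyp1a1 but in the other order. Tph1, the serotonin pathway enzyme gene of enteroendocrine cells, was at 3.98 RPKM in Yap+/- and 3.55 in Yap-/-. Ido2 had at most 2 reads in a library, and Aadat was listed at 0 in all 4.

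NRF2 targets were listed because Nqo1 answers to that factor as well. Of 19 genes 1 was lower in Yap-/- and 0 were higher, where 0.57% and 0.336% of genes were. That 1 was Hmox1, heme oxygenase, at 3.05 RPKM in Yap+/- and 0.923 in Yap-/- (3.30-fold, interval 2.71 to 4.05), and the count was 0 with a pseudocount of 5 or a minimum of 5 RPKM and 2 with a pseudocount of 0.1. With doxycycline 5 of 19 were lower and 2 higher, where 5.8% and 5.85% of genes were, with a median of -0.19 against -0.04 over all genes. Hmox1 was at 2.94 and 14.2 RPKM and the cystine carrier gene Slc7a11 at 1.10 and 4.40 RPKM, 4.85-fold and 4.01-fold higher. Lower beside Nqo1 were Gstm1, at 327 and 34.0 RPKM (9.61-fold), the epoxide hydrolase gene Ephx1 (3.59-fold), the ferritin gene Fth1 (2.23-fold) and the efflux pump gene Abcc2 (2.22-fold). Slc7a11 was at 1.48 RPKM in Yap+/- and 0.595 in Yap-/-, not past 2-fold on the scale with the pseudocount. Hmox1 and Slc7a11 thus lay on the opposite side to Nqo1 in both comparisons. In the reference pair 1 of 19 was higher in Yap+/-, Ephx1 (2.03-fold), and 0 were lower, where 1.11% and 0.726% of genes were. That count was 0 with a pseudocount of 5 and 2 under either other scaling.

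Targets of the hypoxia-inducible factors, which compete for ARNT, were together on the lower side in Yap-/- without passing the threshold. Of 14 genes 0 passed 2-fold (1 with a pseudocount of 0.1) and 14 had a log2 ratio below 0, with a median of -0.38 against 0.05 over all genes. The 2 furthest were Adm, the adrenomedullin gene, at 1.23 RPKM in Yap+/- and 0.256 in Yap-/-, and Ankrd37 at 20.9 and 11.9 RPKM. In the reference pair 3 of 14 were higher in Yap+/- and 0 lower, where 1.11% and 0.726% of genes were, with a median of 0.47 against -0.11 over all genes: Bnip3, a mitophagy receptor gene, at 17.2 and 4.95 RPKM, Egln3, an oxygen-sensing hydroxylase gene, at 45.3 and 18.3 RPKM, and Ankrd37 at 20.9 and 9.17 RPKM. Yap+/- was thus the higher library for 14 of 14 genes in the first comparison and 12 of 14 here, and both share it. The share of all genes higher in Yap+/- at any size was not counted, so these counts are a description only. With doxycycline 6 of 14 were lower and 0 higher, where 5.8% and 5.85% of genes were, and the count was 3 with a pseudocount of 5. The median was -0.45 against -0.04 over all genes. Lower were Ankrd37 (5.94-fold), Bnip3 (4.44-fold), Ndrg1 (4.01-fold), Car9 (3.89-fold), Pdk1 (2.88-fold) and Egln3 (2.47-fold). Cyp1a1 was not lower in this pair, at 0.255 and 0.665 RPKM.

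**Figure D3:**
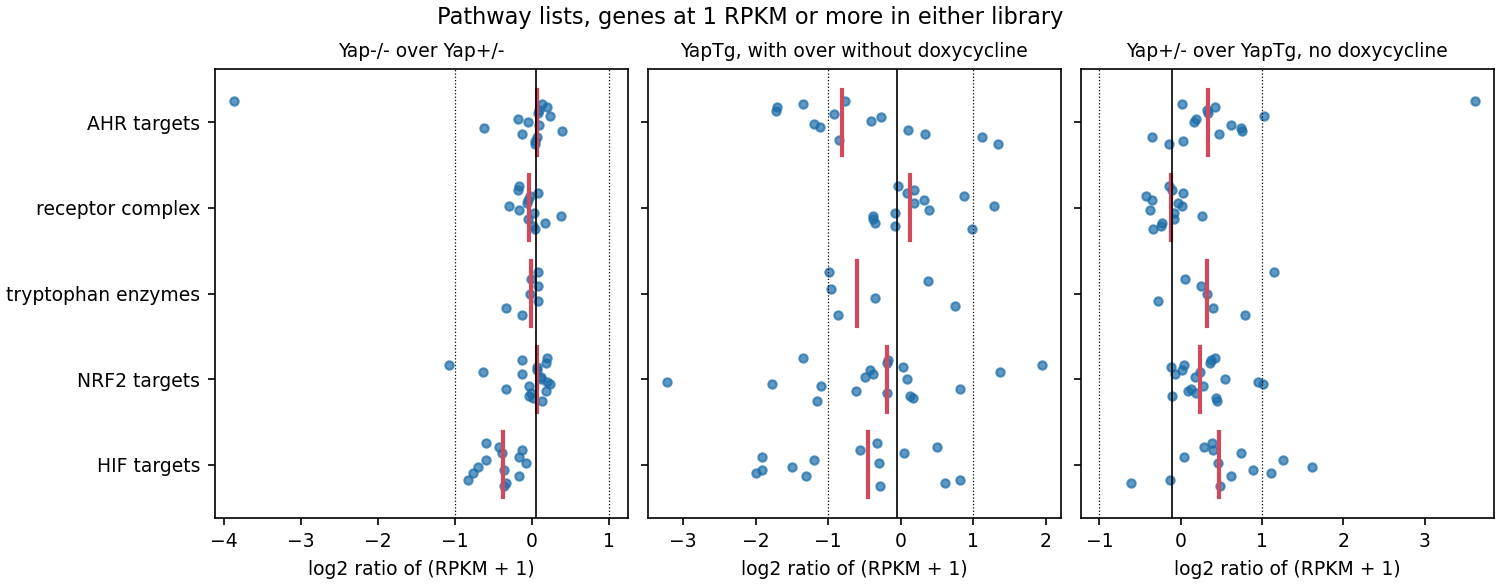
Log2 ratio of RPKM plus 1 for the genes of 5 pathway lists at 1 RPKM or more in either library, 1 point per gene, with red bars at list medians and a black line at the median of all such genes. The 14 HIF targets lie left of 0 in the first panel, with a median of -0.38, and the AHR targets have a median of 0.06, with Cyp1a1 far to the left.

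The genes with levels most like those of Cyp1a1 were sought among 601 candidates that reached 5 RPKM and spanned at least 4-fold over the 4 libraries, on the scale of RPKM plus 1. Likeness was Pearson's r of log2 values over 4 libraries, a description of these libraries with no p. The first was Lars2, the mitochondrial leucyl-tRNA synthetase gene (r = 0.89), at 544 RPKM in Yap+/-, 158 in Yap-/-, 110 in uninduced YapTg and 82.7 in induced YapTg. The next were Ndufa4l2, a hypoxia-inducible mitochondrial gene (0.78; 8.51, 2.42, 0.580 and 0.0277 RPKM in the same order of libraries), and AA467197 (0.72). Cbr3, a carbonyl reductase gene (0.69), and Cybrd1, the duodenal ferric reductase gene (0.67), were at 23.2 and 42.2 RPKM in Yap+/- and 7.14 and 8.81 RPKM in Yap-/-. The choice by r favours genes that are highest in Yap+/-, as these 5 were, so that is no finding. Induced YapTg was the lowest library for each of the 5, and Yap-/- was the lowest for Cyp1a1. The gap was smaller in the 5 than in Cyp1a1: Yap-/- held 20.9% to 41.5% of the Yap+/- level in them and 0.391% in Cyp1a1. Below the level minimum, Cyp1a2 and Cyp1b1 had r of 1.00 and 0.96 with Cyp1a1, and the 5 other members had r between -0.03 and 0.39. With 4 libraries of which 1 stands out, r separates few patterns, and that of Cyp1a2 rests on 16 reads there that may in part come from Cyp1a1.

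**Figure D4:**
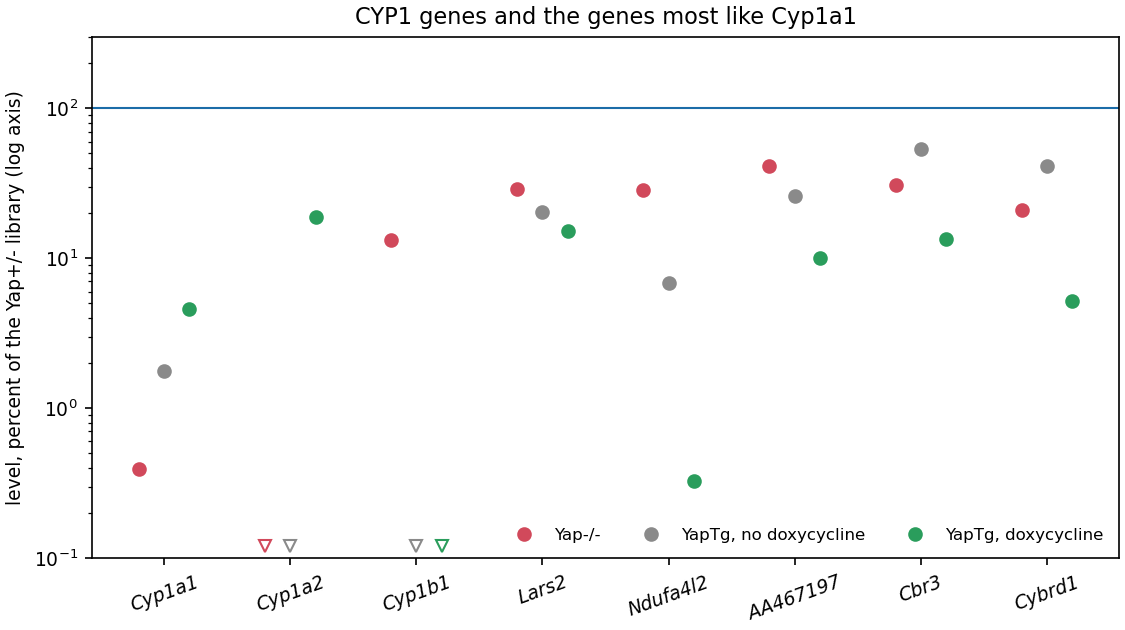
Levels of the CYP1 genes and of the 5 genes most like Cyp1a1, as a percentage of the Yap+/- library (line at 100%) on a log axis, 1 point per library, with open triangles at the bottom for libraries with 0 reads. Cyp1a1 lies at 0.391%, 1.77% and 4.60%, while the 5 similar genes keep 20.9% to 41.5% in Yap-/-.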

How the data were processed

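RNA-seq values of 4 organoid cultures were used, 1 library per group, with groups taken from genotype and source labels. Libraries were made from column-purified total RNA with an Illumina TruSeq kit, per the labels' protocols. CASAVA 1.8, FastQC, TopHat 1.4.1 and build mm9 are named in the submitters' processing notes. No counter, annotation or strand setting is given in the sources used here. The authors deposited 1 table of values, identified here as RPKM from the values themselves, since no header names the unit, and 0 sample columns were left unused. Whole reads were recovered from them: exon lengths in GENCODE M21 (GRCm38) gave each library's total, and a length up to 30000 bases was sought that makes a gene's reads whole within 0.005 in every library. Where several fitted, the one nearest to GENCODE was taken. Of the 7 genes, Nqo1 had the GENCODE length and the other 6 a near one, so their read numbers are less certain.

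Log2 ratios used RPKM plus 1, which understates low genes, and folds are ratios of RPKM without it. Ratio intervals are exact conditional binomial (Clopper-Pearson) and level intervals exact Poisson, at 95%. A gene with 0 reads was bounded by 3 reads. No test was made. Calls and intervals were tested on simulated Poisson counts for genes at 5 RPKM or more in Yap+/-. Genes under 1 RPKM and spread beyond counting error were thus not covered. Genes named are the 7 members, list members past 2-fold (the 6 furthest from 0 at most, or where none passed the 2 furthest) and the 5 genes most like Cyp1a1. Others (Cyp1a2, Cyp2s1, Gsta1, Ugdh and Fgf21 in Yap-/-, Cyp2s1, Abcc2 and Fgf21 with doxycycline, Aldh3a1, Ncoa3, Hsp90aa1 with doxycycline, Hsp90ab1, Ido2, Aadat, Il4i1 in YapTg, Ido1 in Yap-/-, Slc7a11 in Yap-/-) were added after their values were seen. The members and lists were chosen with earlier results of these data known. Promoter sequences are from RefSeq (GRCm38.p6), matched by symbol for 6 of 7 members. Alternatives were pseudocounts of 0.1 and 5, no level minimum or 5 RPKM, scaling by median ratio or by upper quartile, a threshold of 4-fold, the list without Cyp1a1, and distance in place of r. Python 3.11.15, numpy 2.4.6, scipy 1.17.1 and pandas 2.3.3 were used.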

Additional observations from a re-analysis of the deposited data

How the results depend on the processing

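No paired analysis was possible because each group had 1 library. The log2 ratio of Cyp1a1 kept its direction under every alternative run but its size depended on the pseudocount. With 0.1 it was -6.54 in Yap-/- over Yap+/-, 1.11 with over without doxycycline and 5.36 in Yap+/- over uninduced YapTg. With 5 the first and last were -1.94 and 1.89. The number of genes past 2-fold was 97 in Yap-/-, and became 178 with a pseudocount of 0.1, 39 with 5 and 9 past 4-fold. With doxycycline it was 1294, and became 673 with a pseudocount of 5 and 312 past 4-fold. In the reference pair it was 200, and became 411 with 0.1, 99 with 5 and 35 past 4-fold. AHR targets past the threshold fell to 0 in Yap-/- and 1 in the reference pair without Cyp1a1. Past 4-fold they were 0 with doxycycline and 1 in the reference pair. Scaling moved the median of all genes by over 0.1 only in the reference pair, from -0.11 to 0.01 with median-ratio scaling, where the split of higher and lower genes went from 121 and 79 to 172 and 62, and to 156 and 63 with upper-quartile scaling. By distance, 5 of the 5 genes most like Cyp1a1 were the same. Ahrr, Cyp1b1 and Cyp1a2, with at most 67, 128 and 16 reads in a library, are limited by depth. Past 4-fold, HIF targets fell to 0 in the doxycycline and reference pairs, and NRF2 targets to 1 with doxycycline and 0 in the other pairs. Receptor complex genes and tryptophan enzymes past 4-fold were 0 in every pair.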
